A study of Mus musculus with 6 samples.

Results

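The granzymes and perforin are the killing proteins of cytotoxic granules, and their mRNAs were compared here between regulatory T cells (Treg) of mouse liver and spleen. The set was chosen by gene symbol as 9 granzyme genes (Gzma to Gzmg, Gzmk and Gzmm) and the perforin gene Prf1, 10 genes in all. Of these, 9 had a row among the 38854 genes tested, 1 row each. Gzme was not analysed here, since no row carried that symbol alone. The arrays were 3 of liver Treg, numbered 2, 3 and 7 in the labels, and 3 of spleen Treg, numbered 4, 5 and 6. All came from Foxp3-GFP mice, in which a green fluorescent protein marks cells that use Foxp3, the transcription factor of Treg, and the labels give no age, sex, strain background or disease. All mice had been given a complex of IL-2 and an antibody to IL-2, which expands Treg, on 3 days followed by a pause of 3 days, so no array shows Treg without expansion. Isolation is described as fluorescence sorting in one place and as magnetic sorting in another. The labels do not say whether arrays came from separate animals, or whether a liver and a spleen array shared one, so p-values measure the spread between arrays, which may be technical.

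Granzymes are serine proteases that are stored with perforin in the granules of natural killer (NK) cells and cytotoxic T cells. On contact with a target cell the granules are released, perforin makes pores, and the granzymes enter and cleave proteins of the target. Granzyme B cuts after aspartate and starts caspase-driven death, whereas granzymes A and K are trypsin-like and cut after basic residues. In the mouse, Gzmb lies on chromosome 14 beside a group of close relatives, Gzmc to Gzmg, while Gzma and Gzmk are neighbours on chromosome 13 and Gzmm and Prf1 are on chromosome 10. Activated mouse Treg are known to use granzyme B and perforin to kill other lymphocytes.

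Markers of the labelled cell type were measured on all 6 arrays. The log2 signal of Foxp3 was 9.31 to 9.57, and those of Ctla4 and Il2ra were between 11.2 and 12.2. The T cell gene Cd3e, of the CD3 complex, had a log2 signal of 11.7 to 11.9. Values throughout are log2 signals per transcript cluster, and a step of 1 is a doubling. The rows that measure background averaged 4.09 to 4.55 per array, with spleen array 5 the highest, and the median gene was at 5.99 to 6.25. Signals of different genes come from different probes and are not compared with each other as levels.

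Gzma, Gzmk and Prf1 had higher signals on all 3 liver arrays than on all 3 spleen arrays, by 3.64-fold, 1.47-fold and 1.22-fold in the means, but none of these differences passed the test across all genes. Gzmb, Gzmc, Gzmd, Gzmf, Gzmg and Gzmm overlapped between the organs, with log2 differences from -0.12 to 0.09. With a threshold of 0.05 on limma's p, adjusted by Benjamini and Hochberg over all genes, 0 of the 9 measured genes were called, against a background of 0.0206% of all genes. Of the 9, 3 had an unadjusted p under 0.05, as did 1464 of all 38854 genes. Complete separation with liver above occurred in 3 of 9 (33.3%), where 3.11% of all genes showed it. With liver below it occurred in 0 of 9, against 3.09% of all genes. The median log2 difference over the 9 was 0.070, and over all genes -0.018. The genes of this set were picked with earlier results of these data known, so these shares describe the set and do not test it.

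**Figure D1:**
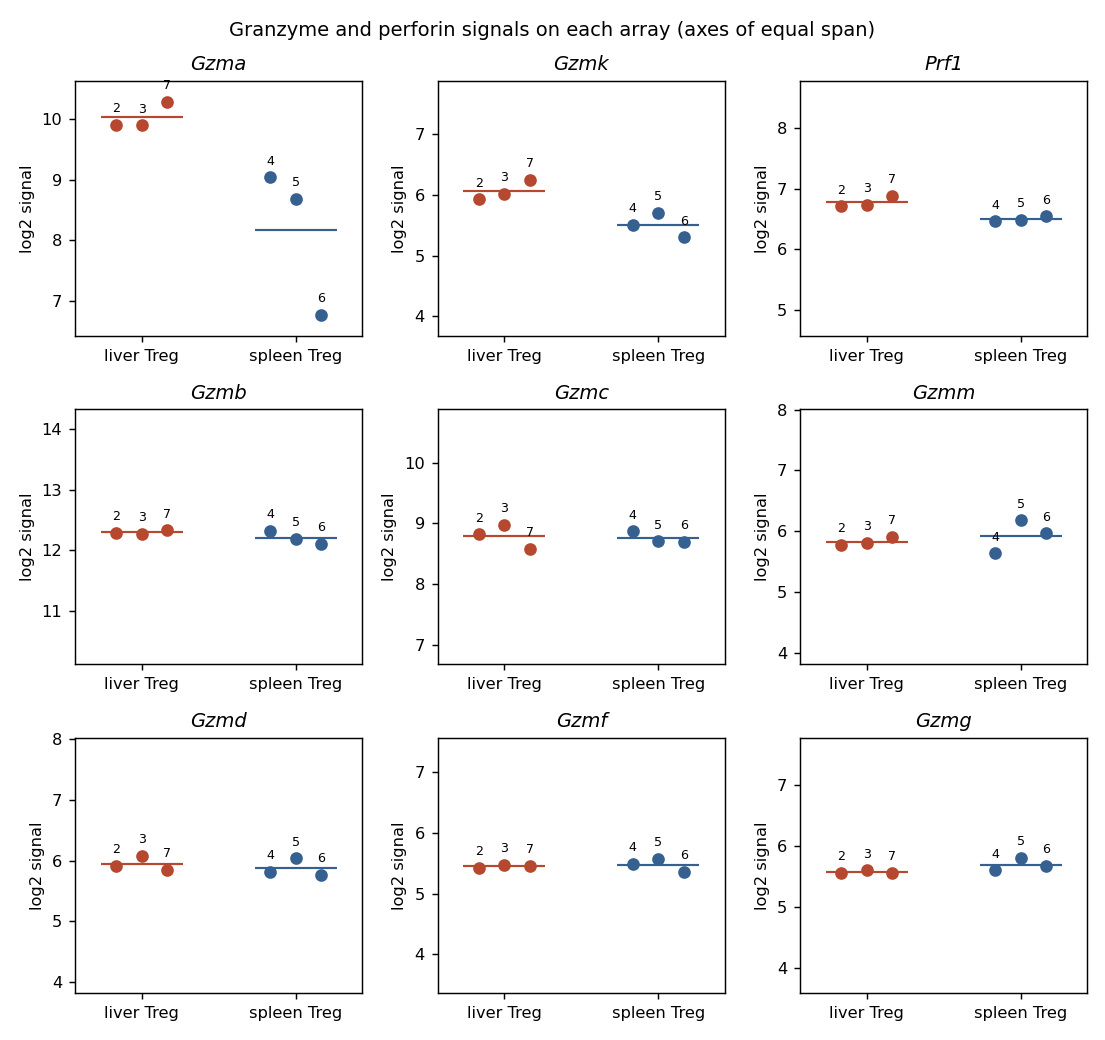
Log2 signal (vertical axis, of equal span in every panel) of each measured granzyme and of Prf1 on the 3 liver and 3 spleen arrays. Points are arrays with their label numbers and lines are group means. Gzma on spleen array 6, at 6.77, stands far below the other arrays, and Gzmb lies between 12.1 and 12.3 on all 6.

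Gzma (transcript cluster TC1300002691.mm.1) encodes granzyme A, which cleaves nuclear proteins of the target cell. Its log2 signal was 9.90, 9.90 and 10.3 on liver arrays 2, 3 and 7, and 9.04, 8.68 and 6.77 on spleen arrays 4, 5 and 6. The liver arrays lay close together, within 0.38, whereas the spleen arrays spanned 2.27, and the gap between the lowest liver and the highest spleen array was 0.86. The means were 10.03 ± 0.22 in liver and 8.16 ± 1.22 in spleen (SD, n = 3 each), a log2 difference of 1.86 (SE 0.42, 95% confidence interval 0.94 to 2.78, limma adjusted p = 0.361). On the linear scale the interval runs from 1.92-fold to 6.88-fold. This interval depends on how limma moderates the spread of a gene: with trend and robust estimation the SE was 0.70. Among all genes this was rank 4 by positive difference, and Gzma was rank 5 by its standard deviation over the 6 arrays. Without spleen array 6 the difference was 1.17, smaller, yet it passed (SE 0.16, limma adjusted p = 0.0328). Without spleen array 4 the difference was 2.30 (adjusted p = 0.0648). An exact permutation test of one gene cannot give a two-sided p below 0.1 with 3 arrays against 3, and Gzma, Gzmk and Prf1 each reached that value. Any gene with complete separation gives it, so this p restates the separation and adds nothing to it.

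Gzmk (TC1300002692.mm.1) encodes granzyme K, a close relative of granzyme A and its neighbour on the chromosome. Its log2 signal was 5.93, 6.01 and 6.25 on liver arrays 2, 3 and 7, and 5.504, 5.71 and 5.30 on spleen arrays 4, 5 and 6. As for Gzma, liver array 7 was the highest and spleen array 6 the lowest, but the spleen arrays spanned only 0.41. The log2 difference was 0.56 (SE 0.14, 95% confidence interval 0.27 to 0.85, limma adjusted p = 0.365), or 1.47-fold. These signals were near the median of the arrays, and folds of dim genes are compressed by the summary method. The measured protein-coding genes next to the pair on chromosome 13, by order of start position only, were Gpx8 and Esm1. They had log2 differences of 0.37 and 0.22 (limma adjusted p = 1 for both). Gpx8 overlapped between the organs, and Esm1 was separated by a gap of 0.0076.

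Prf1 (TC1000000562.mm.1) encodes perforin, the pore-former without which granzymes do not reach the cytosol of the target. Its log2 signal was 6.71, 6.74 and 6.89 on liver arrays 2, 3 and 7, and 6.46, 6.48 and 6.54 on spleen arrays 4, 5 and 6. The groups did not overlap, by a gap of 0.17, and here spleen array 6 was the highest of the spleen arrays. The log2 difference of 0.28 (SE 0.11, 95% confidence interval 0.046 to 0.52, limma adjusted p = 1) corresponded to 1.22-fold. It was between 0.23 and 0.32 when any 1 array was left out.

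Gzmb (TC1400002120.mm.1), which encodes the granzyme best known in Treg, had a bright signal with little difference between organs. Its log2 signal was 12.29, 12.28 and 12.33 on liver arrays 2, 3 and 7, and 12.32, 12.20 and 12.11 on spleen arrays 4, 5 and 6. The groups overlapped, as spleen array 4 lay above liver arrays 2 and 3. The log2 difference was 0.090 (SE 0.11, 95% confidence interval -0.15 to 0.33, limma adjusted p = 1), which allows up to 1.25-fold more in liver. This is below the reported interval of Gzma, whose SE of 0.42 was 0.70 with trend and robust estimation. The brightest gene of each array was at 13.41 to 13.51, and whether signals this close to the top are compressed was not tested.

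Gzma was also set against Gzmb within each array. The Gzma signal minus the Gzmb signal was -2.39, -2.38 and -2.05 on liver arrays 2, 3 and 7, and -3.28, -3.51 and -5.34 on spleen arrays 4, 5 and 6. The groups did not overlap, and this ratio was higher in liver by 1.77 on the log2 scale (exact permutation p = 0.1, two-sided, the smallest that 3 arrays against 3 can give). For Gzmk against Gzmb the same contrast was 0.47 (exact permutation p = 0.1). For Prf1 against Gzmb it was 0.19, and the arrays overlapped (exact permutation p = 0.2). The Gzma to Gzmk ratio also separated the organs, by 1.302 (exact permutation p = 0.1). Without spleen array 6, left out after seeing the data, the contrast was 0.71 for Gzma against Gzmk and 1.12 for Gzma against Gzmb. These 4 ratios were chosen after the values were seen, and no adjusted p over the 4 can be under 0.1.

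The promoters of the 3 genes that separated the organs are shown with that of Gzmb, which did not, to set their sequences side by side. Each is the RefSeq window of 300 bases (250 before and 50 after the gene's start) in GRCm38.p6, 5′ to 3′ on the gene's strand. Capitals mark matches on either strand to short cores of transcription factor families known from cytotoxic genes: ACCACA (RUNX), AGGTGT (T-box), TGANTCA (AP-1), TTCNNNGAA (STAT) and TGACGT (the cyclic AMP response element, CRE).
Gzma (chr13:113100932-113101231, minus strand): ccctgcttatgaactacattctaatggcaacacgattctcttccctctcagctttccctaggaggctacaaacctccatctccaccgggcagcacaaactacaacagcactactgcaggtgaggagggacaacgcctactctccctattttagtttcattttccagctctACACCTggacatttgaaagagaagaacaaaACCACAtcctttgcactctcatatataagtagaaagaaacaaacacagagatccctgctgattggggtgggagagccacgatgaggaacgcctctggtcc
Gzmk (chr13:113180916-113181215, minus strand): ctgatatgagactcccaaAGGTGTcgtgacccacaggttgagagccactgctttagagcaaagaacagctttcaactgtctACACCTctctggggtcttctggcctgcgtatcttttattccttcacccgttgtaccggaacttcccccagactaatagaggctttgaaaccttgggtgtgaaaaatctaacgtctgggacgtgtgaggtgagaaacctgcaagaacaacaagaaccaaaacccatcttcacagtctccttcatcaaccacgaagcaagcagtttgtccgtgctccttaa
Prf1 (chr10:61297586-61297885, plus strand): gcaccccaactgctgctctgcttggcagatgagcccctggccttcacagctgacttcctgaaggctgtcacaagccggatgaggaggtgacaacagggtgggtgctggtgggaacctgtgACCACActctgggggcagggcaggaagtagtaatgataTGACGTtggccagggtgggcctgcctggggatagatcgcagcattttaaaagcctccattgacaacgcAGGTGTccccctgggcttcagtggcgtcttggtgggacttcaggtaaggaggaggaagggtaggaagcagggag
Gzmb (chr14:56262285-56262584, minus strand): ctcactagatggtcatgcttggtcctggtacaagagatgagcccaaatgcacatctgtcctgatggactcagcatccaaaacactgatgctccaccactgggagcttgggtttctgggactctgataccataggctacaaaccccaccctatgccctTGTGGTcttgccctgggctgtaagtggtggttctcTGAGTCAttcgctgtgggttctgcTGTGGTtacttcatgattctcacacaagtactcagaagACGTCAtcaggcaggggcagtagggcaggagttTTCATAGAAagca
The T-box core occurred in Gzma, Gzmk and Prf1, and also in Gzmc and Gzme, which makes 5 of the 10 promoters, against 13.7% of all 32851 promoters in the table. The RUNX core was present in 9 of 10, all but Gzmk, against 16.8%. Gzmm has 2 windows, of which only the more upstream was searched, and its RUNX match lies 247 bases before that start. The shares over all promoters count every window. Gzmb held the only AP-1 match, 58 bases before its start and between RUNX matches 93 and 34 bases before it, where 7.81% of promoters hold an AP-1 core. The STAT core was in Gzmb and Gzmm (8.30% of all promoters) and the CRE core in Gzmb, Gzmc, Gzmf, Gzmg and Prf1 (7.51%). Matches did not overlap a match of another family. They are matches of letters in these windows only, the cores were chosen with the sequences in view, and Gzmc to Gzmg count as near copies.

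The relatives of Gzmb on chromosome 14 are proteases of strongly activated cytotoxic cells in the mouse, and their roles are less well known. Gzmc was clearly above the background rows, with a log2 signal of 8.82, 8.97 and 8.58 on liver arrays 2, 3 and 7 and 8.87, 8.70 and 8.69 on spleen arrays 4, 5 and 6. The highest and the lowest of the 6 values were both liver arrays, so the organs overlapped fully. Its log2 difference was 0.035 (95% confidence interval -0.24 to 0.31, limma adjusted p = 1). Gzmd, Gzmf and Gzmg had signals between 5.36 and 6.08 on all arrays, at or below the median gene, and log2 differences of 0.070, -0.019 and -0.12. In Gzmg the only overlap was between liver array 3 at 5.604 and spleen array 4 at 5.5997. Exact permutation p-values for the 6 genes that overlapped were 0.2 to 0.9 (two-sided, n = 3 each), and overlap alone keeps such a p from being lower than 0.2. Over the 5 measured granzymes of this chromosome the 95% confidence intervals lay within -0.35 to 0.33, so a signal difference like that of Gzma lies outside them. These intervals bound the array signal only. Folds of the dim Gzmd, Gzmf and Gzmg are compressed by the summary method, and compression of the bright Gzmb was not tested.

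The 5 relatives are near copies in their promoters. Their transcripts and probes were not compared, and their separate signals are given as uncertain. Over the same promoter window, any pair of Gzmc to Gzmg was 73.5% to 93.4% identical in a global alignment, with Gzmd and Gzme the most alike, while all other pairs of the 10 genes were at most 50% identical, from 40.3%. A stretch of 65 bases of each promoter (GRCm38.p6, gene strand) shows this, with the run of 20 bases that all 5 share in capitals.
Gzmc (chr14:56234668-56234732, minus strand): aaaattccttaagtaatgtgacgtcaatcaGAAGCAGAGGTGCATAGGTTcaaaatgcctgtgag
Gzmd (chr14:56132608-56132672, minus strand): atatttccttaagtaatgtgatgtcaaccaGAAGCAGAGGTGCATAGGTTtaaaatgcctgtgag
Gzme (chr14:56120641-56120705, minus strand): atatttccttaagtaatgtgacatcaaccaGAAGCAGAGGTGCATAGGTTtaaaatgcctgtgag
Gzmf (chr14:56211443-56211507, minus strand): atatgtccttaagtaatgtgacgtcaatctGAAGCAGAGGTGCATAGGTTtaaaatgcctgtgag
Gzmg (chr14:56159610-56159674, minus strand): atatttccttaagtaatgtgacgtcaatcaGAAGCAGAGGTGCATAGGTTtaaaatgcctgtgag
Likeness of promoters does not show how the probes of this array divide transcripts among these relatives, and that was not tested. RNA from Gzme, which has no row of its own here, cannot be told apart from its relatives if it binds their probes.

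Gzmm encodes granzyme M, known from NK cells. Its log2 signal was 5.77, 5.81 and 5.91 on liver arrays 2, 3 and 7 and 5.63, 6.17 and 5.97 on spleen arrays 4, 5 and 6. Spleen held both the lowest and the highest value, and spleen array 5 was also the array with the highest background rows. The log2 difference was -0.097 (95% confidence interval -0.40 to 0.21, limma adjusted p = 1).

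The genes that surround the granzymes in the granule pathway were taken from 6 lists with 64 measured genes. By limma, 0 of them passed over all genes, and 13 had an unadjusted p under 0.05, as did 1464 of all 38854 genes. In 9 of the 64 (14.1%) all liver arrays lay above all spleen arrays, against 3.11% of all genes, and in 3 below, against 3.09%.

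Among 11 genes of granule content and processing, with a median log2 difference of 0.12, the cathepsin genes Ctsw at 0.60 (SE 0.13, limma adjusted p = 0.305) and Ctsh at 0.51 (0.365) and the granule membrane gene Nkg7 at 0.49 (0.576) had all liver arrays above all spleen arrays. The log2 signal of Nkg7 was 11.53, 11.66 and 11.41 on liver arrays 2, 3 and 7 and 11.25, 11.14 and 10.74 on spleen arrays 4, 5 and 6. Tnfsf10, the death ligand TRAIL, was at 0.24, and Fasl, the death ligand of the Fas receptor, was nearest to no difference at -0.014. Ctsc, whose product removes the propeptide that keeps granzymes inactive, was at 0.12, and Srgn, the proteoglycan that holds granzymes in the granule, at -0.050. Of 11 genes that move and fuse granules, with a median of 0.048, 0 separated the organs. Of all genes, 3.11% did so with liver above and 3.09% with liver below, so 0 of 11 is near that share. The largest differences were Vamp7 at 0.26, Stx11 at -0.25, Lyst at 0.23 and Sytl2 at 0.14, and Snap23 was nearest to 0 at -0.014.

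Of 6 protease inhibitor genes all had a positive difference, with a median of 0.28, and 3 separated the organs with liver above. Of all 38854 genes, 16453 had a positive difference and 3.11% had all liver arrays above all spleen arrays. Serpina3g, an intracellular serpin of activated lymphocytes, had the lowest adjusted p of the 64 genes. Its log2 signal was 8.71, 8.89 and 8.61 on liver arrays 2, 3 and 7 and 8.08, 7.83 and 7.47 on spleen arrays 4, 5 and 6. No liver array reached down to a spleen array, and the log2 difference was 0.95 (SE 0.15, limma adjusted p = 0.0746), or 1.93-fold. Serpinb9, whose product is the direct inhibitor of granzyme B, differed by 0.12 (95% confidence interval -0.16 to 0.40). Serpinb1a was at 0.31, Serpinb6b at 0.29, Serpinb6a at 0.27 and Serpinb9b at 0.089.

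The 15 regulators of cytotoxic genes had a median of 0.0032, with differences of both signs. Tbx21, the T-box factor T-bet, was at 0.45 (SE 0.11, limma adjusted p = 0.365), with 8.16, 8.08 and 8.13 on liver arrays 2, 3 and 7 and 7.70, 7.78 and 7.53 on spleen arrays 4, 5 and 6. All liver arrays were above all spleen arrays. Eomes, the other T-box factor of cytotoxic cells, was dim and differed by -0.12. Prdm1, which encodes Blimp-1, was the other regulator with liver above, at 0.28. Bach2 at -0.41 and Tcf7 at -0.41, factors of resting and memory T cells, and Nfil3, a factor of NK cell development, at -0.32 had all liver arrays below all spleen arrays. Notch1 was nearest to 0 at 0.0032. The 12 substrates of granzymes had a median of 0.060, from -0.093 for Trex1 to 0.28 for Nme1, and Set was the one with all liver arrays above all spleen arrays, at 0.13. Other values were Parp1 at 0.17, Hmgb2 at 0.14 and Dffa at 0.017. Of the 9 other proteases encoded near Gzmb, all differed by less than 0.1, with Mcpt9 at 0.096, Mcpt1 at -0.070, Mcpt4 at 0.034 and Cma1 at -0.029, and Gzmn nearest to 0 at -0.0087. The 9, mostly proteases of mast cells and neutrophils, were between 3.84 and 6.15 on every array.

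**Figure D2:**
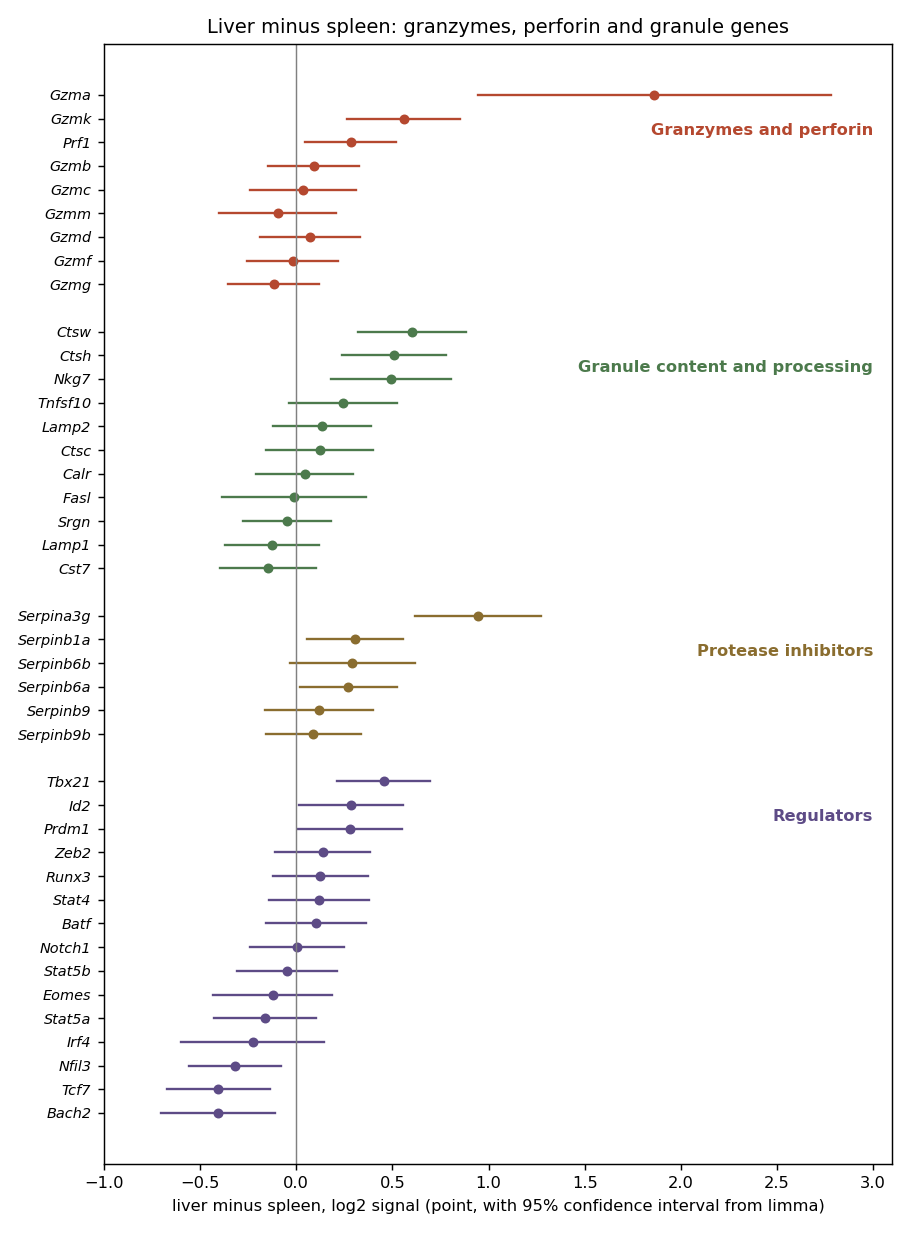
Liver minus spleen difference in log2 signal (horizontal axis) for the 9 measured granzyme and perforin genes and 3 of the 6 granule lists. Points are limma estimates from 3 arrays each and bars are 95% confidence intervals. Gzma, at 1.86, has the largest difference and the widest interval.

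Markers of other granzyme-bearing cells were measured beside these genes, and none of the NK, ILC1 and CD8 T cell markers passed the test. Of the 10 NK and ILC1 markers, 10 had a positive difference, as did 16453 of all 38854 genes, and their median was 0.58. In 6 of the 10 all liver arrays lay above all spleen arrays, against 3.11% of all genes. None passed limma, and 7 had an unadjusted p under 0.05, as did 1464 of all 38854 genes. The summed signal of the 10 markers, on the log2 scale, was 10.9, 11.0 and 10.2 on liver arrays 2, 3 and 7. It was 9.63 to 9.93 on the spleen arrays. Klrd1 differed by 1.88 (SE 0.29, limma adjusted p = 0.0695) and Tyrobp, a signalling adaptor of NK cells, by 1.27. Klra8 and Klre1, which NK cells use as receptors, were at 3.88 to 4.96 on all arrays, close to the background rows. Of the 2 CD8 T cell genes, Cd8a differed by 0.97 and Cd8b1 by 0.29, and their summed signal was 9.41 to 9.47 in liver and 8.65 to 9.30 in spleen. In a bulk sample, more cells of a type and more RNA per cell cannot be told apart. The part of NK or CD8 T cell RNA in the Gzma, Gzmk and Prf1 results was not tested.

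The 3 genes and the NK markers had different orders within the liver arrays. Liver array 7 was the highest liver array in Gzma, Gzmk and Prf1, by 0.38, 0.28 and 0.16 above the mean of liver arrays 2 and 3. It was also the highest in Gzmb and Gzmm, which did not separate the organs, so in 5 of the 9 measured genes. It was the lowest in 9 of the 10 NK markers, with Klrb1c, the NK1.1 antigen, lower by 1.23, Klrd1 by 0.98 and Tyrobp by 0.97. The 10th, S1pr5, was higher there by 0.47. Liver array 7 was the highest liver array in 27.1% of all genes and the lowest in 52.2%. Of the 11 genes of granule content and processing, 11 were lowest on liver array 7, Nkg7 and Ctsw included.

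**Figure D3:**
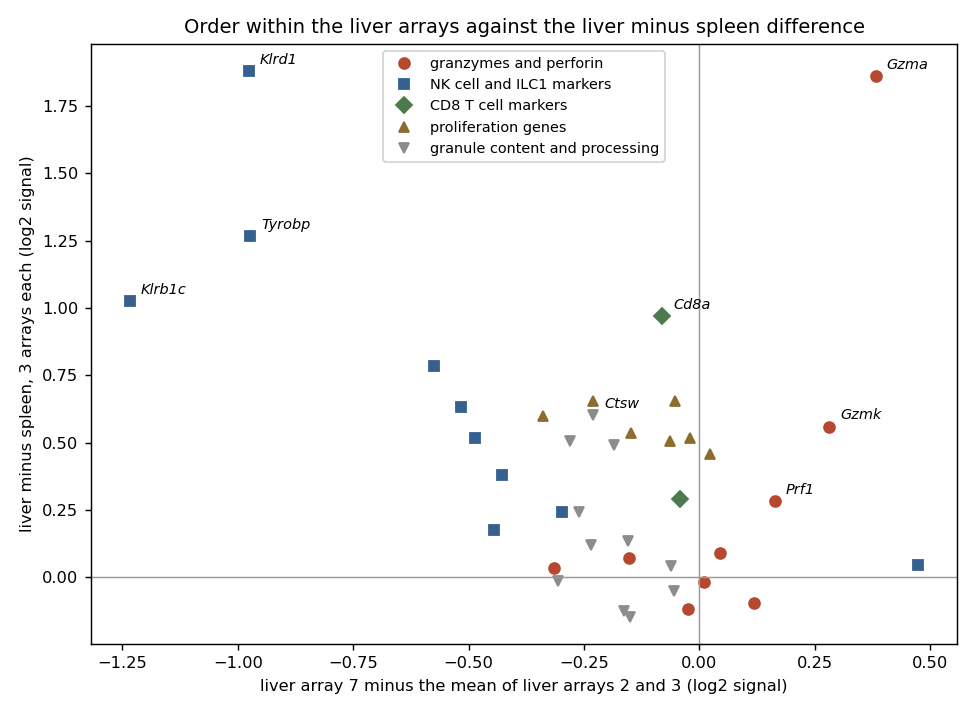
Liver minus spleen difference (vertical axis, log2 signal) against the signal of liver array 7 minus the mean of liver arrays 2 and 3 (horizontal axis, log2 signal), 1 point per gene, for the granzymes and Prf1, NK and ILC1 markers, CD8 T cell markers, proliferation genes and genes of granule content and processing. Gzma, Gzmk and Prf1 lie to the right of 0, as do Gzmb, Gzmf and Gzmm, whereas 9 of the 10 NK and ILC1 markers lie to the left.

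Within spleen, several sets shared the order of Gzma, which was highest on array 4 and lowest on array 6. The 7 proliferation genes had a median log2 difference of 0.53, and all 7 separated the organs with liver above, where 3.11% of all genes did. None of the 7 passed limma, and 7 had an unadjusted p under 0.05, as did 1464 of all 38854 genes. The summed signal of the 7 genes was 12.2 to 12.3 in liver and 12.0, 11.7 and 11.5 on spleen arrays 4, 5 and 6. All 7 were lowest on spleen array 6, as were 40.9% of all genes. Mki67, a marker of dividing cells, differed by 0.46, and Bub1 had the largest difference at 0.65. Cd8a had the same order, at 7.25, 6.78 and 6.44 on spleen arrays 4, 5 and 6, and so did Klrd1, at 6.21, 5.82 and 5.04, but none of the other 9 NK and ILC1 markers. The summed signal of the NK and ILC1 list had the opposite order, at 9.63, 9.82 and 9.93. That sum weights bright genes most, such as Tyrobp, at 7.47, 8.17 and 8.42 on spleen arrays 4, 5 and 6. Taken singly, 5 of the 10 markers were lowest on spleen array 6. The part of dividing cells in the Gzma result was not tested.

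Of the other marker lists, plasmacytoid dendritic cell markers, of cells that can hold granzyme B, had a median of 0.26. Among them Klk1 differed by 1.03 and Siglech by 1.004, both with all liver arrays above all spleen arrays and both lowest of liver on array 7, and Pacsin1 differed by -0.13. Their part in the granzyme results was not tested. Mast cell and basophil markers, of cells that also store granule proteases, had a median of -0.033, and Tpsb2 differed by 0.00090, while Cyp11a1 differed most at 0.17. B cell markers had a median of 0.27, with Ms4a1 at 0.38 and Cd79a at 0.16. Macrophage markers had a median of -0.095, with C1qb at -0.29 and C1qa at 0.073, and hepatocyte markers 0.067, with Alb at 0.47 and Apoa1 at 0.067. Treg markers had a median of -0.014, with Lrrc32 at -0.29 and Ctla4 at 0.033, and the CD3 and CD4 genes 0.0025, with Cd4 at 0.086 and Cd3d at -0.067. None of the genes of these lists passed limma over all genes.

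The genes whose pattern over the 6 arrays was most like that of a granzyme were found by the root mean square difference of values centred on each gene's own mean. For Gzma, with a standard deviation of 1.29, the nearest were Klrd1 (0.59), Il12rb2 (0.66), Plac8 (0.68), Cd8a (0.70) and Ifng (0.70), so none was close to Gzma relative to its own spread. Of these, Il12rb2, a chain of the IL-12 receptor, passed the test (log2 difference 1.23, SE 0.17, limma adjusted p = 0.0473). That call was lost after each of 3 rescalings and without spleen array 5, where limma called 0 genes (1448, 2391, 2429 and 2017 at an unadjusted p under 0.05). Klrd1 shared the spleen order of Gzma, but was lowest of liver on array 7, where Gzma was highest. Ifng was lowest on spleen array 6, at 8.52 against 10.1 and 9.94 on spleen arrays 4 and 5. For Gzmk, with a standard deviation of 0.35, the nearest were the heat shock genes Hspa1b (0.067) and Hsph1 (0.098) and the replication genes Mcm10 (0.095), Gins2 (0.10) and Uhrf1 (0.13). Gzmm, with a standard deviation of 0.19, was nearest to Sema6b (0.0213), Mdk (0.0214), Sh3tc2 (0.0216), Cyp2d9 (0.0218) and Hrk (0.0236). All 5 shared with Gzmm its highest value on spleen array 5. This likeness covers 6 arrays only and shares their array-wide differences.

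The difference was positive for Gzma and Prf1 in each of 17 alternative settings and for Gzmk in each of the 16 that kept it, while calls varied. The sign was largely fixed in advance, since all liver arrays lay above all spleen arrays in these genes. Leaving out or weighting arrays could not change it, and settings that kept the values and arrays repeated the same difference. Only the rescalings could have changed the sign. The log2 difference lay between 1.04 and 2.69 for Gzma, between 0.36 and 0.75 for Gzmk and between 0.19 and 0.39 for Prf1. Gzma passed limma without spleen array 6 and with array weights (adjusted p = 0.00183), and did not without both liver array 7 and spleen array 6 (adjusted p = 0.283). It also did not pass after array medians were subtracted (limma adjusted p = 0.943). Nor did it pass with trend and robust estimation, where its SE was 0.70 against 0.42 as reported. The array weights gave spleen array 6, where Gzma was lowest, 2.35, against 0.451 and 0.188 for spleen arrays 4 and 5. Liver array 2 got 9.34, against 1.05 and 0.511 for liver arrays 3 and 7. With these weights 3533 of 38854 genes were called, against 8 with all arrays and no weights. Gzmk passed with array weights alone (adjusted p = 0.00386), and Prf1 in no setting. A pass with liver arrays 2 and 3 left out (adjusted p = 0.00106) rests on 1 liver array, the one where Gzma was highest, and supports nothing.

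**Figure D4:**
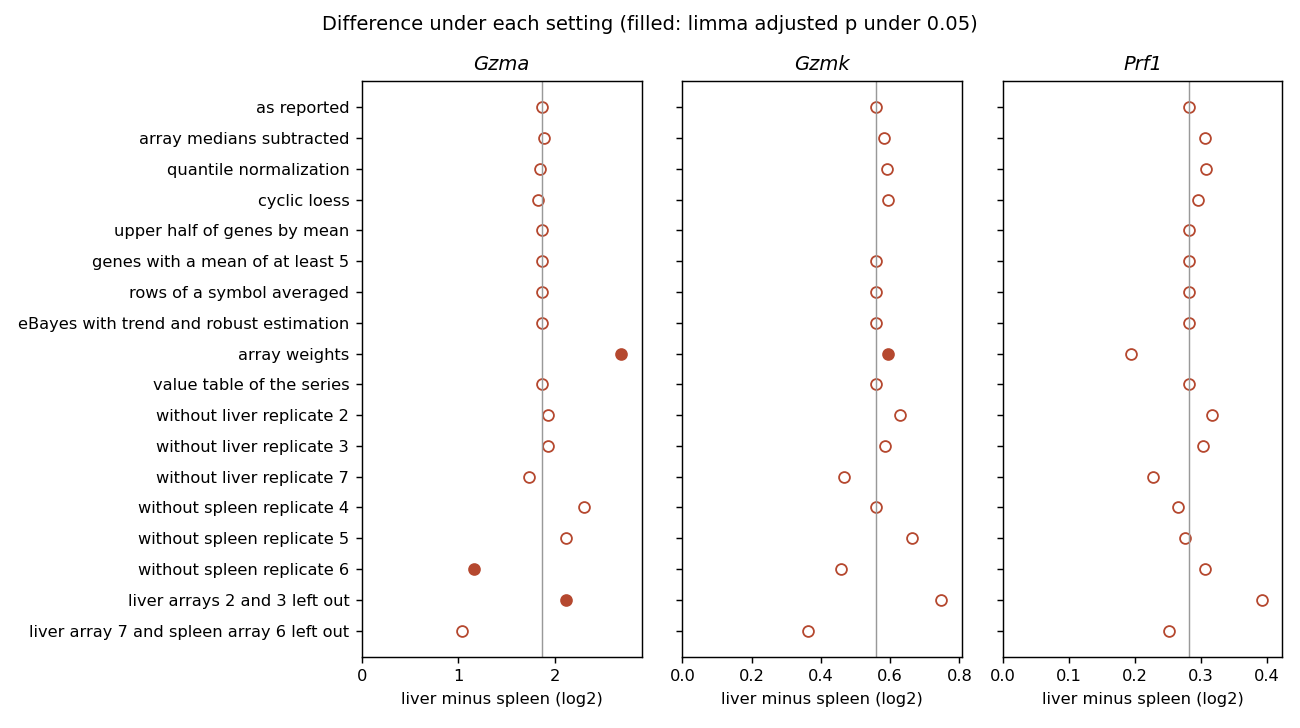
Liver minus spleen log2 difference (horizontal axes from 0, each with its own scale) of Gzma, Gzmk and Prf1 in each setting, named on the vertical axis. Filled points have a limma adjusted p under 0.05 over all genes tested, and the vertical line is the reported value. Without spleen array 6 the Gzma difference was 1.17.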

How the data were processed

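RNA of 6 Treg samples was measured on Affymetrix arrays, named Mouse Gene ST 2.0 in the labels and Mouse Transcriptome Array 1.0 (MTA) in the file headers. The deposited values are log2 signals per transcript cluster, made by RMA; per the submitters' processing notes the software was Affymetrix Expression Console, with no version, build or annotation release given in the sources used here. RMA compresses folds of dim genes. Of 72688 rows, 39514 had 1 symbol, and for symbols with several rows the row with the highest mean was kept, which gave 38854 genes. The deposited series matrix and annotated table agreed in all log2 values (largest difference 0). Liver was compared with spleen with the moderated linear model of limma 3.58.1, two-sided and adjusted over all genes (R 4.3.3). The procedure was tested on simulated data with independent normal noise, the same spread in both organs for each gene and no array-wide differences. These arrays are unlike that setting, with weights from 0.188 to 9.34, so the simulation does not show how the procedure performs on them. Depth has no meaning for arrays, whose number limits the precision. Named genes were all granzyme and perforin genes of the set, for each pathway list the called genes, up to 4 with the largest differences and the 1 nearest to 0, and for each marker list that with the highest mean and that with the largest difference. One substrate gene that the rule names is not reported here. Others (Ctsc, Srgn, Serpinb9, Eomes, Prdm1, Set, Trex1, Il2ra, Foxp3, Cd3e, Siglech, S1pr5, Cd8b1, Cd4, Klrb1c, Klra8 and Klre1) and flanking genes were added after their values were seen. Likeness lists name 5 genes for each of the 3 members with the largest standard deviation. The members and lists were chosen with earlier results of these data known. Izumo1r, Adgre1 and Gsdme were read under the file's older symbols. Promoters were matched by symbol (10 of 10) and aligned with Biopython 1.88.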

Additional observations from a re-analysis of the deposited data

How the results depend on the processing

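No paired analysis was possible because liver and spleen arrays share no number. With all arrays 8 genes were called (1464 at an unadjusted p under 0.05). It was 0 after subtracting array medians, after quantile normalization and after cyclic loess (1448, 2391 and 2429 unadjusted), 18 among genes above the median mean, 21 with a mean of at least 5 and 27 with trend and robust estimation. Leaving out 1 array gave 0 (without spleen array 5, 2017 unadjusted) to 33 (without liver array 7). Array weights gave 3533, with weights from 0.188 for spleen array 5 and 2.35 for spleen array 6 to 9.34 for liver array 2. Calls among the granzymes and Prf1 were 2 with array weights, 1 with liver arrays 2 and 3 left out, 0 to 1 with 1 array left out and 0 in the other settings. Their median difference was 0.186 among genes above the median mean, where 4 of 9 remained, 0.138 with array weights, -0.012 with liver arrays 2 and 3 left out and 0.0054 to 0.121 with 1 array left out. Small differences changed sign. Gzmf was at 0.0046, 0.0172 and 0.0176 after the 3 rescalings, 0.045 with array weights and -0.078 to 0.030 with 1 array left out, above 0 without spleen array 5. Gzmc was at -7.05e-05 after cyclic loess, -0.055 to 0.140 with 1 array left out, below 0 without liver array 3, and -0.18 with liver arrays 2 and 3 left out. Gzmd was at -0.031 with liver arrays 2 and 3 left out, and Gzmm at -0.243 to 0.028 with 1 array left out, above 0 without spleen array 5. The cause of these changes was not tested. With liver array 7 and spleen array 6 both left out, added after seeing the data, Gzma was at 1.04 (adjusted p = 0.283).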
